A study of Mus musculus with 5 samples.

Results

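Apoe, Apod, Clu, Abca1, Abcg1, Lrp1 and Lrp8 encode carriers of lipid in the brain, exporters that load them and receptors that bind them. The 7 genes were chosen by symbol among the 78334 genes listed in each of 5 count matrices, and each symbol matched 1 row: Apoe (ENSMUSG00000002985.17), Apod (ENSMUSG00000022548.15), Clu (ENSMUSG00000022037.16), Abca1 (ENSMUSG00000015243.5), Abcg1 (ENSMUSG00000024030.8), Lrp1 (ENSMUSG00000040249.16) and Lrp8 (ENSMUSG00000028613.16). The rule uses symbols and no measured value. The study counted RNA in single cells or nuclei of the mouse dentate gyrus, the hippocampal region whose granule neurons receive cortical input, after contextual fear conditioning (CFC), which pairs a place with a foot shock. Dissociated cells were taken 14 days after training from wild-type mice given CFC (CFC-14d) or random foot shocks (Random-14d). Nuclei from frozen tissue were taken from untrained wild-type mice (WT-naive) and, 14 days after CFC, from wild-type (WT-CFC) and mutant mice (KO-CFC). Each group was 10 mice and 1 library, so no difference between groups has a replicate check. The labels give neither age, sex nor strain. For KO-CFC one label names a Csf2rb2 knockout and another names Csf2rb3-KO, and Csf2rb2 RNA was counted at 9.67 CPM (counts per 1000000) there against 17.6 in WT-CFC and 14.4 in WT-naive. A count near the end of the transcript need not fall in a deleted stretch, so this does not check the genotype, and the text calls it by that label only.

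Lipid moves between brain cells on lipoprotein particles assembled around apolipoprotein E, the product of Apoe, and around clusterin, the product of Clu. ABCA1 and ABCG1 are membrane pumps that hand cholesterol and phospholipid to such particles, and liver X receptors, which sense oxysterols, switch on their genes together with Apoe. Cells take the particles up through endocytic receptors, among them LRP1, and LRP8, which is also a receptor for the positional signal Reelin. Apolipoprotein D, from Apod, belongs to another protein family, the lipocalins, and carries small hydrophobic molecules such as arachidonic acid.

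Promoters of Apoe, Apod and Abca1 are shown because Apoe and Apod were highest in different classes of cells and because Abca1 and Apoe share a class of known regulators. The sequences are from RefSeq in the mouse build GRCm38.p6, which is older than the builds named for the count tables, and run from 250 bases before to 50 bases after the start of the transcript, 5′ to 3′ on the gene's strand. The table held 9 promoters for 5 of the 7 genes (Apoe, Apod, Abca1, Lrp1 and Lrp8). Capitals mark a spaced repeat, searched on both strands as GGTNA, any 5 bases and GGTCA, or, where there was none, the single site GGTCA that the repeat contains.
Apoe promoter, chr7:19699139-19699438, minus strand: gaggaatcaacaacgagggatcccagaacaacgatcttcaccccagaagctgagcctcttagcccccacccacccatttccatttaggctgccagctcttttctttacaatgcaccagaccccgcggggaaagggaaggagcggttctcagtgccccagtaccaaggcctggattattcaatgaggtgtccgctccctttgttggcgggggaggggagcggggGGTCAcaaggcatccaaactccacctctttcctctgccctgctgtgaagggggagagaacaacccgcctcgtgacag
Apod promoter, chr16:31314759-31315058, minus strand: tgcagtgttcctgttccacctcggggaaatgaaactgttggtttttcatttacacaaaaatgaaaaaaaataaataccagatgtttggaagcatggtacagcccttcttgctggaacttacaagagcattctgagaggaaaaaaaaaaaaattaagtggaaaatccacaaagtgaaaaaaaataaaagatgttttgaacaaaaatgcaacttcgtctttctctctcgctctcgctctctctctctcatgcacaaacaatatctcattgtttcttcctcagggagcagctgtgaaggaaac
Abca1 promoter, chr4:53159846-53160145, minus strand: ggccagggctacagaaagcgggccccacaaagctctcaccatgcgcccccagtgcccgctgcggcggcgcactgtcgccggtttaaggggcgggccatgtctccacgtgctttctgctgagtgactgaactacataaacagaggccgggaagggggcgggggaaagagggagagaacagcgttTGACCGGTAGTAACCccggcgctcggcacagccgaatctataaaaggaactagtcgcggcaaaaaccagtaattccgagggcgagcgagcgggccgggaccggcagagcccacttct
The spaced repeat was present in 0.207% of the 32851 promoters in the table (68 of them), and among the 9 promoters of these genes only in that of Abca1, where it ran from 67 to 53 bases before the start on the opposite strand. The open base of GGTNA is the base at which the Abca1 repeat, which begins GGTTA on that strand, differs from GGTCA. The pattern thus allows the Abca1 form, and its share among promoters is a description and no test of Abca1. GGTCA alone was present in 40.5% of all promoters and once in the Apoe promoter printed, the farthest upstream of 3 in the table. The other 2 Apoe promoters held no GGTCA, and 1 of them held TATAAA 2 times. The Apod promoter held neither motif. The letters CACGTG (7.15% of all promoters) and TATAAA (13.6%) were also searched, and the Abca1 promoter held both once. The GC content of the 3 printed promoters was 57.7% for Apoe, 37.3% for Apod and 62.7% for Abca1.

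The libraries held 32827, 30515, 10968, 13213 and 8395 barcodes and between 38045642 and 126937815 UMIs (molecules counted by their tag), with medians of 1997 to 3988 UMIs per barcode. Cells and nuclei were clustered apart, without the 7 genes or the pathway genes described further on, and clusters were named by marker genes: 15 classes of cells and 12 of nuclei, each called "like" its type with 1 exception. Monocyte markers scored highest in a class of 357 and 276 cells, but its leading genes were mostly of antigen presentation (H2-Ab1, Cd74, H2-Eb1 and H2-Aa), with 1 monocyte marker (Plac8) and 1 dendritic cell marker (Cd209a) among the top 10, so it is called by the leading genes H2-Ab1, Cd74 and Plac8. Granule neurons formed a class in nuclei and none in cells, where choroid plexus epithelial cell-like cells made up 17.8% and 18.7% of barcodes. Several libraries stood apart. Ttr, the main transcript of choroid plexus, was 212002 and 205111 CPM of the cell libraries, and an unnamed cluster led by S100a9, S100a8 and Camp held 5104 cells of CFC-14d against 274 of Random-14d. Xist, made from the inactive X of females, was 641 CPM in the KO-CFC-labelled library against 2.94 in WT-naive and 1.81 in WT-CFC, and B cell markers summed to 596 CPM there against 2.23 and 3.15. Unnamed clusters held 10.4% to 40.7% of barcodes after filters, with the largest share in WT-CFC. Among them, a cluster led by Mir6236 held 4037 nuclei of WT-CFC against 1477 of WT-naive and 1013 of the KO-CFC-labelled library. The median depth of all barcodes was 2220 UMIs in WT-CFC against 3988 in WT-naive and 2897 in the KO-CFC-labelled library. The cell libraries shared 282 barcodes, and pairs of nuclei libraries 25 to 32. The part of these differences in the results below was not tested.

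A level is the CPM of the counts summed over one class in one library, with an exact Poisson 95% interval that covers counting error only. Levels in cells are given in the order CFC-14d, Random-14d, and levels in nuclei in the order WT-naive, WT-CFC, KO-CFC-labelled library. Levels are not compared between genes, because the counts are of transcript ends and carry no length.

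Apoe, the carrier of cholesterol made mainly by astrocytes, was highest among cells in border-associated macrophage-like cells, at 34498 (34207 to 34790) and 35585 (35276 to 35897) CPM. Astrocyte-like cells followed at 12798 and 13015 CPM, fibroblast-like cells at 7746 and 7825 CPM, choroid plexus epithelial cell-like cells at 3909 and 3940 CPM and the H2-Ab1/Cd74/Plac8-led cells at 3001 and 2975 CPM. The ranges of the 2 libraries did not overlap between any of these 5 neighbours. The next 8 classes, from oligodendrocyte-like (2343 and 2694 CPM) to B cell-like cells (1574 and 1829 CPM), formed a run in which each class overlapped its neighbours. Across the run there was an order, as oligodendrocyte-like and neutrophil-like cells (2545 and 2386 CPM) lay above endothelial cell-like (2131 and 1983 CPM), microglia-like and B cell-like cells in both libraries. Microglia-like cells lay in that run, at 2084 and 1816 CPM, not above T or NK cell-like cells at 2579 and 1685 CPM, a class that is not known to make Apoe. Neuroblast-like cells (1290 and 1251 CPM) and erythroid cell-like cells (886 and 786 CPM) were lowest.

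The share of cells with an Apoe UMI shows the same limit. After thinning to 1000 UMIs it was 66.7% and 68.7% of microglia-like cells (87.2% and 86.2% unthinned, median depth 2188 and 1963 UMIs) against 60.3% and 59.5% of T or NK cell-like cells (84.5% and 84.3%, median 2606 and 2121) and 47.6% and 44.0% of erythroid cell-like cells (91.3% and 91.3%, median 6499 and 6862). In border-associated macrophage-like cells it was 99.4% and 99.1%. Within the microglia-like class Apoe differed by cluster: 4297 and 3711 CPM in cells led by C1qc and C1qb, 3462 and 3834 in cells led by the interferon-induced Ifit3, 1986 and 1769 in cells led by Ccl4, and 1747 and 1634 in cells led by Gpr34 and P2ry12. Within the macrophage-like class, cells led by Ccl7 and Mrc1 stood at 38271 and 37766 CPM and those led by Ms4a7 and Cbr2 at 27238 and 29905 CPM. The astrocyte-like clusters stood at 17164 and 17065 CPM (led by Gpc5) and at 9804 and 10742 CPM (led by Gpr37l1).

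In nuclei Apoe was highest in astrocyte-like nuclei, at 5286 (5171 to 5404), 5778 (5668 to 5890) and 7287 (7125 to 7452) CPM. Every other class of nuclei lay below that range. The levels were 668, 626 and 4587 CPM in microglia-like nuclei, 618, 1064 and 1993 in oligodendrocyte-like nuclei and 816, 768 and 1368 in oligodendrocyte precursor-like nuclei, and these 3 ranges overlapped. Neurons were lower, with 125, 65.6 and 379 CPM in granule neuron-like nuclei and 63.8, 38.7 and 165 CPM in those of CA3 or CA2 pyramidal neuron-like type. Astrocyte-like nuclei held 48.7%, 55.2% and 27.1% of the Apoe counts in barcodes left after filters, in 8.44%, 7.04% and 7.12% of their nuclei.

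**Figure D1:**
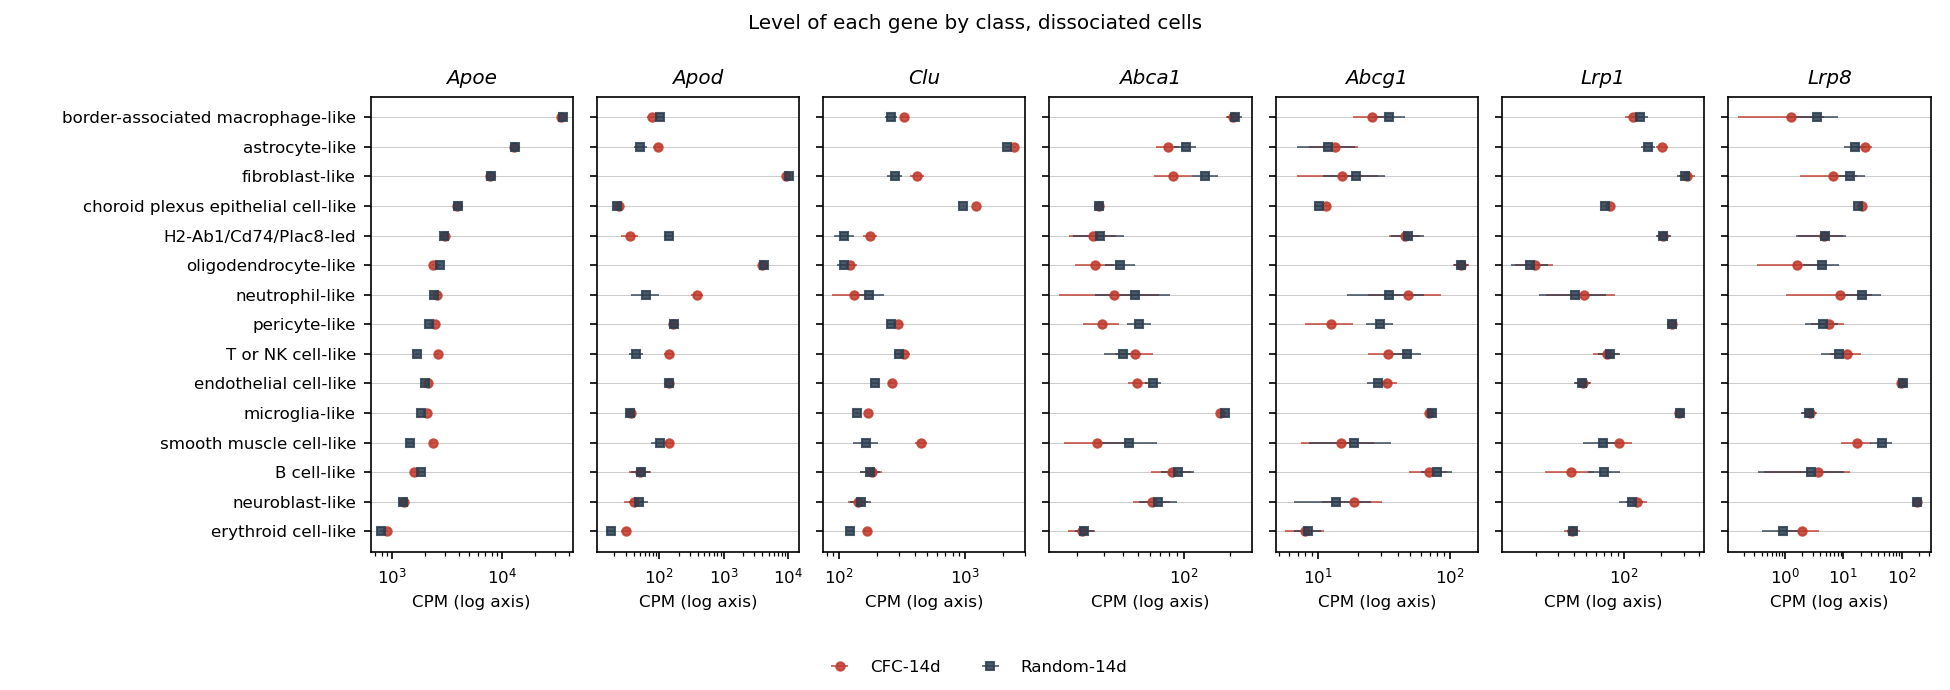
Level of each gene (CPM, log axis) in the classes of dissociated cells, with classes ordered by Apoe; points are the CFC-14d and Random-14d libraries and bars exact Poisson 95% intervals for counting error. Apoe is highest in border-associated macrophage-like cells (34498 and 35585 CPM), Apod in fibroblast-like and oligodendrocyte-like cells, Clu in astrocyte-like cells and Lrp8 in neuroblast-like and endothelial cell-like cells.

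Apod, a lipocalin known from oligodendrocytes and meningeal fibroblasts, was the most restricted of the carriers. Among cells it stood at 9441 (9196 to 9691) and 10442 (10215 to 10673) CPM in fibroblast-like cells and at 4028 and 4300 CPM in oligodendrocyte-like cells, and in the other 13 classes at 388 CPM or less. Those 2 classes were 0.785% and 1.01% (fibroblast-like) and 1.66% and 2.14% (oligodendrocyte-like) of the cells and held 28.6% and 38.7%, and 37.4% and 42.3%, of the Apod counts in barcodes left after filters. In nuclei Apod was 281 (248 to 317), 734 (688 to 781) and 493 (448 to 542) CPM in oligodendrocyte-like nuclei, where the 3 libraries do not overlap. All other named classes of nuclei were below 84 CPM in each library. After thinning to 1000 UMIs, 23.6%, 46.0% and 33.8% of oligodendrocyte-like nuclei had an Apod UMI (37.6%, 69.0% and 45.0% unthinned, median depth 1784, 1852 and 1584 UMIs) against 0.257%, 0.299% and 1.48% of granule neuron-like nuclei (1.19%, 2.01% and 5.46% unthinned, median depth 4448, 5065 and 3505 UMIs).

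Clu, whose product clusterin is a secreted chaperone and lipid carrier, was highest in astrocyte-like cells, at 2483 (2410 to 2559) and 2174 (2099 to 2252) CPM. Choroid plexus epithelial cell-like cells followed at 1218 and 977 CPM and held 73.6% and 80.1% of the Clu counts in barcodes left after filters. Fibroblast-like cells stood at 420 and 278 CPM and smooth muscle cell-like cells at 447 and 164 CPM, and these ranges overlapped with each other and with those of pericyte-like cells (297 and 259 CPM). Oligodendrocyte-like cells had the lowest mean, at 121 and 110 CPM, with a range that overlapped that of H2-Ab1/Cd74/Plac8-led cells (178 and 110 CPM). In nuclei Clu was again highest in astrocyte-like nuclei, at 1743 (1677 to 1811), 2582 (2508 to 2657) and 2677 (2579 to 2778) CPM, and every other named class was at 503 CPM or less. Astrocyte-like nuclei led by Gpc5 stood at 2023, 2637 and 2931 CPM and those led by Adgrv1 at 1029, 2263 and 1957 CPM.

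**Figure D2:**
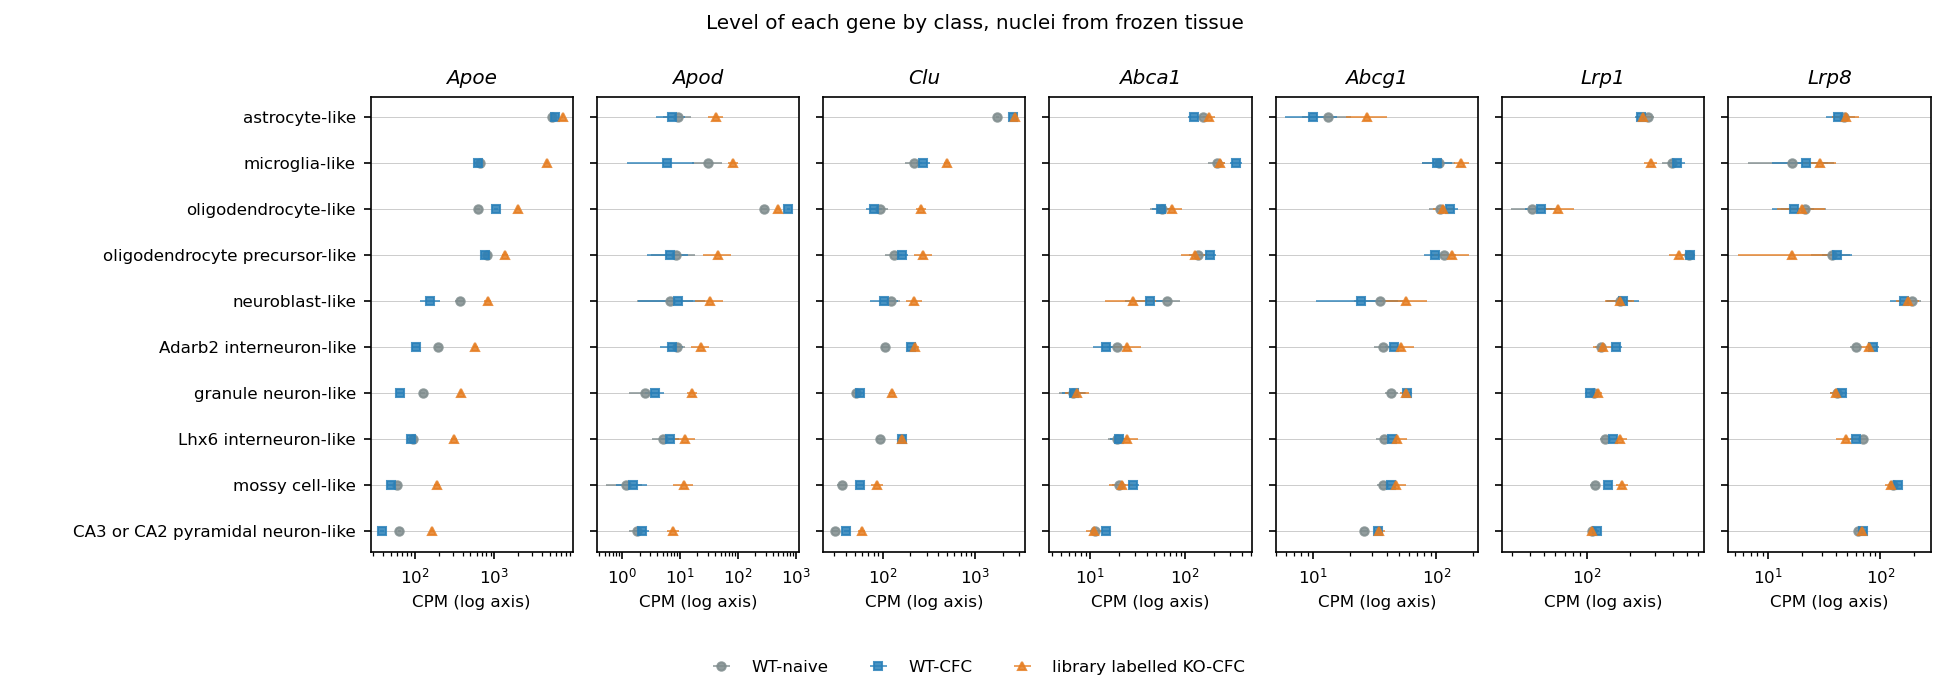
Level of each gene (CPM, log axis) in the classes of nuclei, with classes ordered by Apoe; points are the WT-naive, WT-CFC and KO-CFC libraries and bars exact Poisson 95% intervals for counting error. The triangles of the KO-CFC-labelled library lie to the right of the other points for Apoe in every class, while the 3 points of Lrp1 and Lrp8 lie close together in most classes.

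Abca1, the pump for cholesterol onto lipid-poor apolipoprotein, was highest among cells in border-associated macrophage-like cells, at 210 (188 to 234) and 216 (193 to 242) CPM, followed by microglia-like cells at 173 (167 to 179) and 185 (179 to 191) CPM. The ranges of the 2 libraries did not overlap between these classes, although the counting intervals of their nearest values overlapped. Fibroblast-like (85.4 and 138 CPM), B cell-like (83.5 and 91.6 CPM) and astrocyte-like cells (78.2 and 103 CPM) came next with overlapping ranges. Within the macrophage-like class the cells led by Ccl7 and Mrc1 had 276 and 270 CPM of Abca1 and those led by Ms4a7 and Cbr2 had 82.4 and 76.1 CPM. In nuclei Abca1 was 216, 347 and 234 CPM in microglia-like, 155, 124 and 179 in astrocyte-like and 136, 185 and 128 in oligodendrocyte precursor-like nuclei. The last 2 classes overlapped, and granule neuron-like nuclei were lowest at 6.62, 6.85 and 7.38 CPM.

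Abcg1, the partner pump that adds cholesterol to particles already formed, had another order. Oligodendrocyte-like cells were highest at 122 (106 to 139) and 121 (107 to 137) CPM, followed by B cell-like cells at 69.0 and 80.3 CPM and microglia-like cells at 68.8 and 73.0 CPM, whose ranges overlapped. Astrocyte-like cells, with 13.3 and 11.9 CPM, were near the bottom beside choroid plexus epithelial cell-like cells (11.5 and 10.2 CPM), and erythroid cell-like cells were lowest (7.99 and 8.42 CPM). In nuclei the microglia-like (105, 102 and 160 CPM), oligodendrocyte-like (106, 129 and 114 CPM) and oligodendrocyte precursor-like classes (116, 97.0 and 135 CPM) overlapped at the top, while astrocyte-like nuclei had 13.2, 9.95 and 27.5 CPM. The astrocyte-like class was thus first for Apoe and Clu in nuclei and last among the 10 compared classes for Abcg1 in WT-naive, WT-CFC and the KO-CFC-labelled library. Across class sums, the correlation of log2(CPM + 1) of Abca1 with Abcg1 was 0.23 in cells (29 sums) and 0.31 in nuclei (30 sums), and that of Abca1 with Apoe was 0.55 and 0.77, as descriptions over sums that share libraries.

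Lrp1, a large endocytic receptor for apolipoprotein E, was broad. Fibroblast-like cells stood at 322 (278 to 370) and 306 (268 to 347) CPM, microglia-like cells at 275 and 283, pericyte-like cells at 244 and 244, H2-Ab1/Cd74/Plac8-led cells at 207 and 207 and astrocyte-like cells at 202 and 157 CPM. Oligodendrocyte-like cells were lowest at 19.6 and 18.1 CPM. In nuclei the oligodendrocyte precursor-like class was highest at 517, 525 and 446 CPM, followed by microglia-like (396, 428 and 281 CPM) and astrocyte-like nuclei (268, 240 and 249 CPM). Oligodendrocyte-like nuclei were again lowest at 41.5, 47.6 and 62.6 CPM, and every neuron class lay between 105 and 178 CPM.

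Lrp8, the receptor for apolipoprotein E and Reelin, was high in 2 classes of cells. Neuroblast-like cells had 185 (157 to 216) and 184 (154 to 218) CPM and endothelial cell-like cells 97.7 (88.0 to 108) and 104 (94.8 to 115) CPM, and in the other 13 classes the level was 45.6 CPM or less. The 2 endothelial cell-like clusters differed: cells led by Cldn5, Flt1 and Cxcl12 had 125 and 130 CPM, and cells led by Plvap and Emcn had 2.40 and 2.34 CPM. In nuclei neuroblast-like (193, 163 and 176 CPM) and mossy cell-like nuclei (129, 142 and 124 CPM) were highest, with ranges that did not overlap. CA3 or CA2 pyramidal neuron-like nuclei had 63.7, 69.4 and 68.9 CPM and granule neuron-like nuclei 40.6, 45.7 and 39.9 CPM. After thinning, 16.8% and 19.1% of neuroblast-like cells had an Lrp8 UMI (40.2% and 41.6% unthinned, median depth 3511 and 2971 UMIs) against 0.146% and 0.0782% of erythroid cell-like cells (1.20% and 0.451% unthinned, median depth 6499 and 6862 UMIs).

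Differences between libraries are log2 ratios of the class sums with 0.5 counts added, with an exact 95% interval for counting error. A gene was taken up in a class with at least 100 barcodes in each library where it had at least 100 counts over both, and is called different at 1.5-fold or more. Beside the count of calls in each comparison stands the percentage of all genes, over the same classes and by the same rule, that were called. There is no p-value, because each group is 1 library.

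In CFC-14d against Random-14d, which sets a learned context against unpaired shocks, 74 of 98 pairs of gene and class were taken up, and 8 were called higher and 3 lower (14.9%), where 3.35% of all genes were called (1.82% higher and 1.53% lower). The smooth muscle cell-like class gave 2 of these calls and called 26.6% of its genes. Without it, 9 of 70 pairs were called (12.9%), and without the H2-Ab1/Cd74/Plac8-led class, which gave another 2, 9 of 69 (13%). The 3.35% of all genes was counted with both classes included. Clu was higher in 13 of 14 classes, with a median log2 ratio of 0.31, and Abca1 lower in 10 of 12, with a median of -0.13. The median over all genes and classes was 0.04, and the share of all genes higher or lower by any amount is not given here. Ratios near 0 changed sign in some alternative settings. For Clu this held in B cell-like (7 of 11), neuroblast-like (8 of 11, up to 0.93), T or NK cell-like (2 of 7, down to -0.44) and pericyte-like cells (1 of 11). In neuroblast-like cells Clu was past 1.5-fold in 6 of the 11. For Abca1 it held in choroid plexus epithelial cell-like (4 of 11), erythroid cell-like (3 of 11), border-associated macrophage-like (2 of 11) and B cell-like cells (1 of 10). The other 5 genes had medians between -0.03 and 0.03.

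Clu stood at 420 CPM in fibroblast-like cells of CFC-14d and 278 in Random-14d, a log2 ratio of 0.59 (0.33 to 0.86), just past the 1.5-fold limit of 0.58, in a class where 6.24% of genes were called. In 3 of 11 alternative settings, 2 of them other scalings, this ratio was below 1.5-fold, down to 0.50. In H2-Ab1/Cd74/Plac8-led cells it was 178 against 110 CPM (0.68, 0.36 to 1.02; 5.91% of genes called) and in smooth muscle cell-like cells 447 against 164 CPM (1.44, 1.09 to 1.82). In the 2 classes with most Clu the differences were smaller than 1.5-fold and their intervals excluded 0: 1218 against 977 CPM in choroid plexus epithelial cell-like cells (0.32, 0.30 to 0.33) and 2483 against 2174 CPM in astrocyte-like cells (0.19, 0.12 to 0.26). Over 11 alternative settings these Clu ratios ran from 0.14 to 0.33 and from 0.13 to 0.36. The median ratio of all genes in these classes was 0.10 and 0.02. The difference was also present in erythroid cell-like cells, which are not known to make Clu, at 167 against 123 CPM (0.45, 0.31 to 0.58). Over whole libraries Clu was 821 and 604 CPM and Ttr 212002 and 205111 CPM. The summed choroid plexus markers of smooth muscle cell-like cells were 112934 against 42687 CPM and those of H2-Ab1/Cd74/Plac8-led cells, scored highest for monocyte markers, were 39806 against 24008 CPM, and the part of free choroid plexus RNA in these ratios was not tested.

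**Figure D3:**
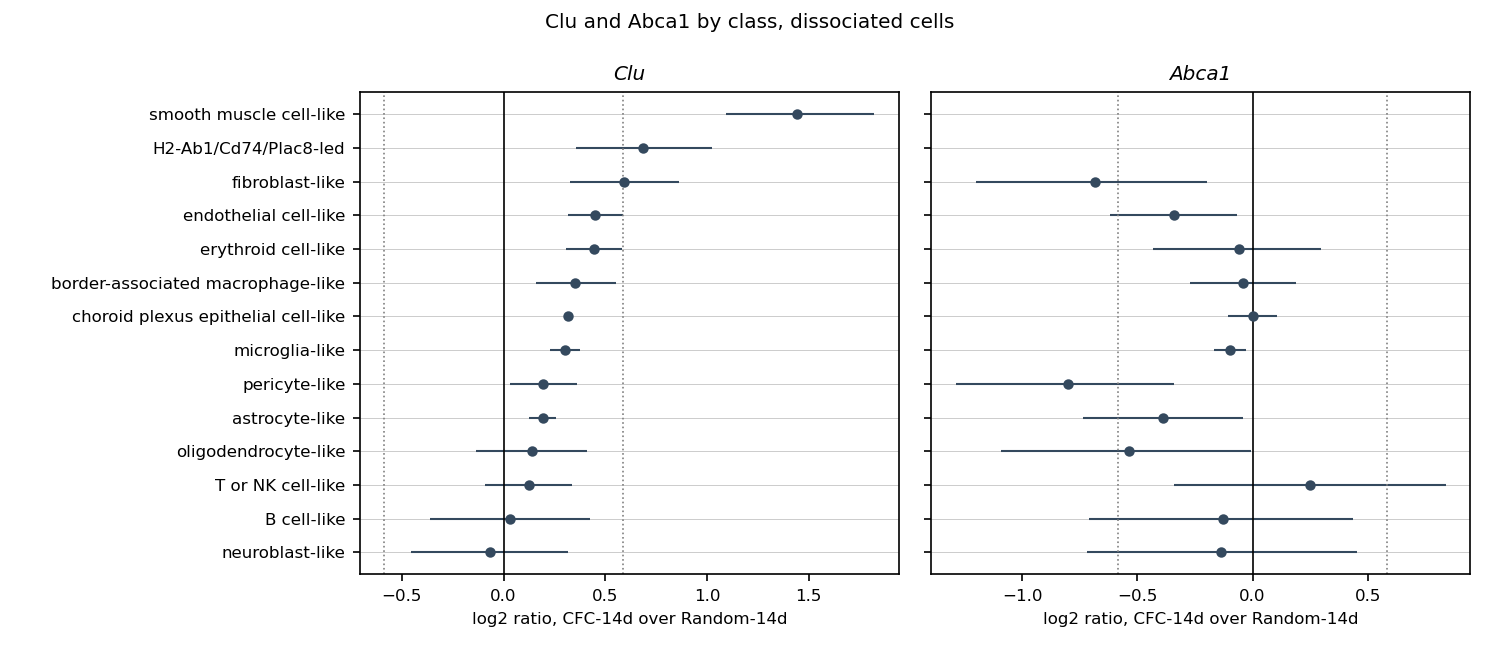
Log2 ratio of CFC-14d over Random-14d for Clu (left) and Abca1 (right) in each class of cells where the gene was taken up, with exact 95% intervals for counting error; dotted lines mark 1.5-fold. Clu lies right of 0 in 13 of 14 classes and Abca1 left of 0 in 10 of 12, most of them within the 1.5-fold lines. The median over all genes and classes was 0.04.

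Abca1 was called lower in pericyte-like cells, at 29.0 (21.9 to 37.6) CPM in CFC-14d and 50.7 (42.2 to 60.4) in Random-14d (log2 ratio -0.80, -1.29 to -0.34; 2.96% of genes called), and in fibroblast-like cells, at 85.4 against 138 CPM (-0.68, -1.20 to -0.20). In 2 of the 3 pericyte-like clusters the values were 21.4 against 42.2 and 77.9 against 150 CPM, and in the third, led by Ifitm1, 38.7 against 46.1 CPM. The smallest of the 3, led by Rgs5, Mgp and Vtn, held 160 and 110 cells. Its next-highest marker score was for microglia (1.77 against 3.70 for pericytes), and the part of microglial RNA in these values was not tested. Astrocyte-like (-0.39, -0.74 to -0.04) and endothelial cell-like cells (-0.34, -0.62 to -0.07) lay in the same direction within 1.5-fold. Microglia-like cells, which held more Abca1 counts than any other class, had 173 against 185 CPM (-0.10, -0.17 to -0.03). With no removal of doublets the ratio in pericyte-like cells was -0.11 and no longer past 1.5-fold.

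Apoe, for all its range between classes, was nearly level between these libraries where it was highest: the log2 ratio was -0.04 (-0.06 to -0.03) in border-associated macrophage-like cells, -0.02 (-0.05 to 0.00) in astrocyte-like cells and -0.01 (-0.07 to 0.04) in fibroblast-like cells. In microglia-like cells it was 0.20 (0.18 to 0.22). The calls were in T or NK cell-like cells (2579 against 1685 CPM, 0.61, 0.53 to 0.70) and smooth muscle cell-like cells (2324 against 1442 CPM, 0.69, 0.56 to 0.82). In T or NK cell-like cells 4 of 7 alternative settings left Apoe below 1.5-fold. Apod was within 1.5-fold in the classes that carry it, at -0.15 (-0.19 to -0.10) in fibroblast-like and -0.09 (-0.14 to -0.05) in oligodendrocyte-like cells. It was called in classes that carry little: 142 against 43.9 CPM in T or NK cell-like cells (1.69, 1.25 to 2.16), 95.05 against 50.9 in astrocyte-like cells (0.89, 0.49 to 1.32), 29.96 against 17.5 in erythroid cell-like cells (0.77, 0.43 to 1.12) and 34.7 against 139 in H2-Ab1/Cd74/Plac8-led cells (-1.99, -2.52 to -1.51). Fibroblast markers summed to 82.8 against 46.2 CPM in T or NK cell-like cells and 41.7 against 77.4 CPM in H2-Ab1/Cd74/Plac8-led cells, and their part was not tested. The classes of these Apod calls called 2.91% (T or NK cell-like), 2.8% (astrocyte-like), 4.03% (erythroid cell-like) and 5.91% (H2-Ab1/Cd74/Plac8-led) of their genes. With no removal of doublets the astrocyte-like ratio of Apod turned to -0.08.

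Abcg1, Lrp1 and Lrp8 were called in none of the 6, 12 and 4 classes taken up. Lrp1 was 202 (181 to 224) against 157 (137 to 179) CPM in astrocyte-like cells (0.36, 0.12 to 0.61) and 275 against 283 CPM in microglia-like cells (-0.05, -0.10 to 0.01). In pericyte-like cells, not taken up at 24 and 72 counts, Abcg1 was 12.4 against 29.4 CPM (-1.23, -1.98 to -0.56). Abcg1 in oligodendrocyte-like cells had a log2 ratio of 0.00 (-0.26 to 0.27), and Lrp8 of 0.01 (-0.33 to 0.35) in neuroblast-like cells and -0.09 (-0.30 to 0.11) in endothelial cell-like cells. The Lrp8 ratio in neuroblast-like cells was negative in all 11 alternative settings, down to -0.30.

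In WT-CFC against WT-naive, which sets trained against untrained wild-type mice, 53 of 70 pairs were taken up, and 6 were called higher and 4 lower (18.9%), where 6.58% of all genes were called (3.9% higher and 2.68% lower). The called differences fell into 3 kinds: more Apod and Apoe in oligodendrocyte-like nuclei, more Clu in 3 classes of neurons, and less Apoe in 4 classes of neurons and neuroblasts. One further call was Abca1 in microglia-like nuclei. Abcg1, Lrp1 and Lrp8 were called in none of 7, 10 and 7 classes.

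Apod in oligodendrocyte-like nuclei stood at 734 CPM in WT-CFC and 281 in WT-naive, a log2 ratio of 1.38 (1.19 to 1.59), above that of 99.6% of the genes taken up in that class. Apoe there was 1064 (1009 to 1120) against 618 (568 to 670) CPM (0.78, 0.64 to 0.93), whereas Clu was 81.1 against 93.7 CPM (-0.21, -0.63 to 0.21). The summed oligodendrocyte markers moved as well, at 11366 CPM (WT-CFC), 7839 CPM (WT-naive) and 7478 CPM (KO-CFC-labelled). This class called 14% of its genes, and the part of its marker level in the Apod and Apoe ratios was not tested. In the cell libraries, which compare CFC with random shocks, the oligodendrocyte-like ratio was -0.09 for Apod and -0.20 (-0.26 to -0.14) for Apoe. The difference between these 2 comparisons was not tested.

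Clu in Adarb2 interneuron-like nuclei was 204 (188 to 221) CPM after CFC against 106 (96.4 to 117) without training (0.94, 0.76 to 1.12). In Lhx6 interneuron-like nuclei it was 163 against 92.8 CPM (0.81, 0.64 to 0.98) and in mossy cell-like nuclei 57.7 against 36.5 CPM (0.66, 0.44 to 0.88). In astrocyte-like nuclei, its main class, it was 2582 against 1743 CPM (0.57, 0.50 to 0.64), just inside the 1.5-fold limit of 0.58, and 87.8% against 72.3% of these nuclei had a Clu UMI after thinning (95.2% and 85.03% unthinned). Granule neuron-like nuclei had 57.2 against 51.9 CPM (0.14, -0.07 to 0.36). The mossy cell-like ratio was below 1.5-fold in 2 of 10 alternative settings, down to 0.44. The 3 classes with a Clu call called 11.2% (Adarb2 interneuron-like), 5.33% (Lhx6 interneuron-like) and 5.4% (mossy cell-like) of their genes. Over whole libraries Clu was 180 CPM in WT-CFC and 114 CPM in WT-naive. The part of free RNA in the neuron ratios of Clu was not tested.

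Apoe was called lower in 4 of the 6 classes of neurons and neuroblasts of WT-CFC: 65.6 (60.0 to 71.6) against 125 (116 to 135) CPM in granule neuron-like nuclei (-0.93, -1.10 to -0.77), 38.7 against 63.8 in CA3 or CA2 pyramidal neuron-like ones (-0.72, -0.84 to -0.60), 103 against 197 in Adarb2 interneuron-like nuclei (-0.94, -1.14 to -0.75) and 157 against 367 in neuroblast-like nuclei (-1.22, -1.70 to -0.78). In those classes 3.51%, 4.33%, 11.2% and 9.78% of genes were called. The other 2 were not called, at 50.4 against 59.7 CPM in mossy cell-like nuclei (-0.24, -0.44 to -0.05) and 89.0 against 95.9 CPM in Lhx6 interneuron-like nuclei (-0.11, -0.30 to 0.08), where the ratio turned to 0.06 with no doublet removal. With at least 1000 UMIs and 500 genes the neuroblast-like ratio was -0.56, within 1.5-fold. Astrocyte-like nuclei went the other way within 1.5-fold, at 5778 against 5286 CPM (0.13, 0.09 to 0.17). An unnamed cluster of nuclei with few UMIs (median 568 and 604), led by Mir6236, had 572 CPM of Apoe in WT-CFC against 1018 in WT-naive. Neurons are not known as a main source of Apoe, and the part of free RNA in these ratios was not tested. In microglia-like nuclei Apoe was 626 against 668 CPM (-0.09, -0.33 to 0.14), and this value ranged from -0.70 to -0.01 over 12 alternative settings, past 1.5-fold in 2 of them.

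Abca1 in microglia-like nuclei was 347 (298 to 402) CPM after CFC against 216 (174 to 265) without training, a log2 ratio of 0.68 (0.32 to 1.07), where 9.4% of genes were called. With at least 1000 UMIs and 500 genes it was 0.55, within 1.5-fold. Within 1.5-fold, it was also higher in mossy cell-like (0.49, 0.19 to 0.79), oligodendrocyte precursor-like (0.45, 0.09 to 0.82) and CA3 or CA2 pyramidal neuron-like nuclei (0.37, 0.14 to 0.61). It was lower in astrocyte-like nuclei, at 124 against 155 CPM (-0.33, -0.60 to -0.06). Abcg1 was 57.5 (52.3 to 63.1) against 43.2 (38.0 to 48.9) CPM in granule neuron-like nuclei (0.41, 0.18 to 0.64) and 33.8 against 25.7 CPM in the CA3 or CA2 pyramidal neuron-like class (0.39, 0.24 to 0.55). Lrp1 in mossy cell-like nuclei had a log2 ratio of 0.31 (0.18 to 0.44) and Lrp8 in Adarb2 interneuron-like nuclei one of 0.49 (0.23 to 0.75).

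**Figure D4:**
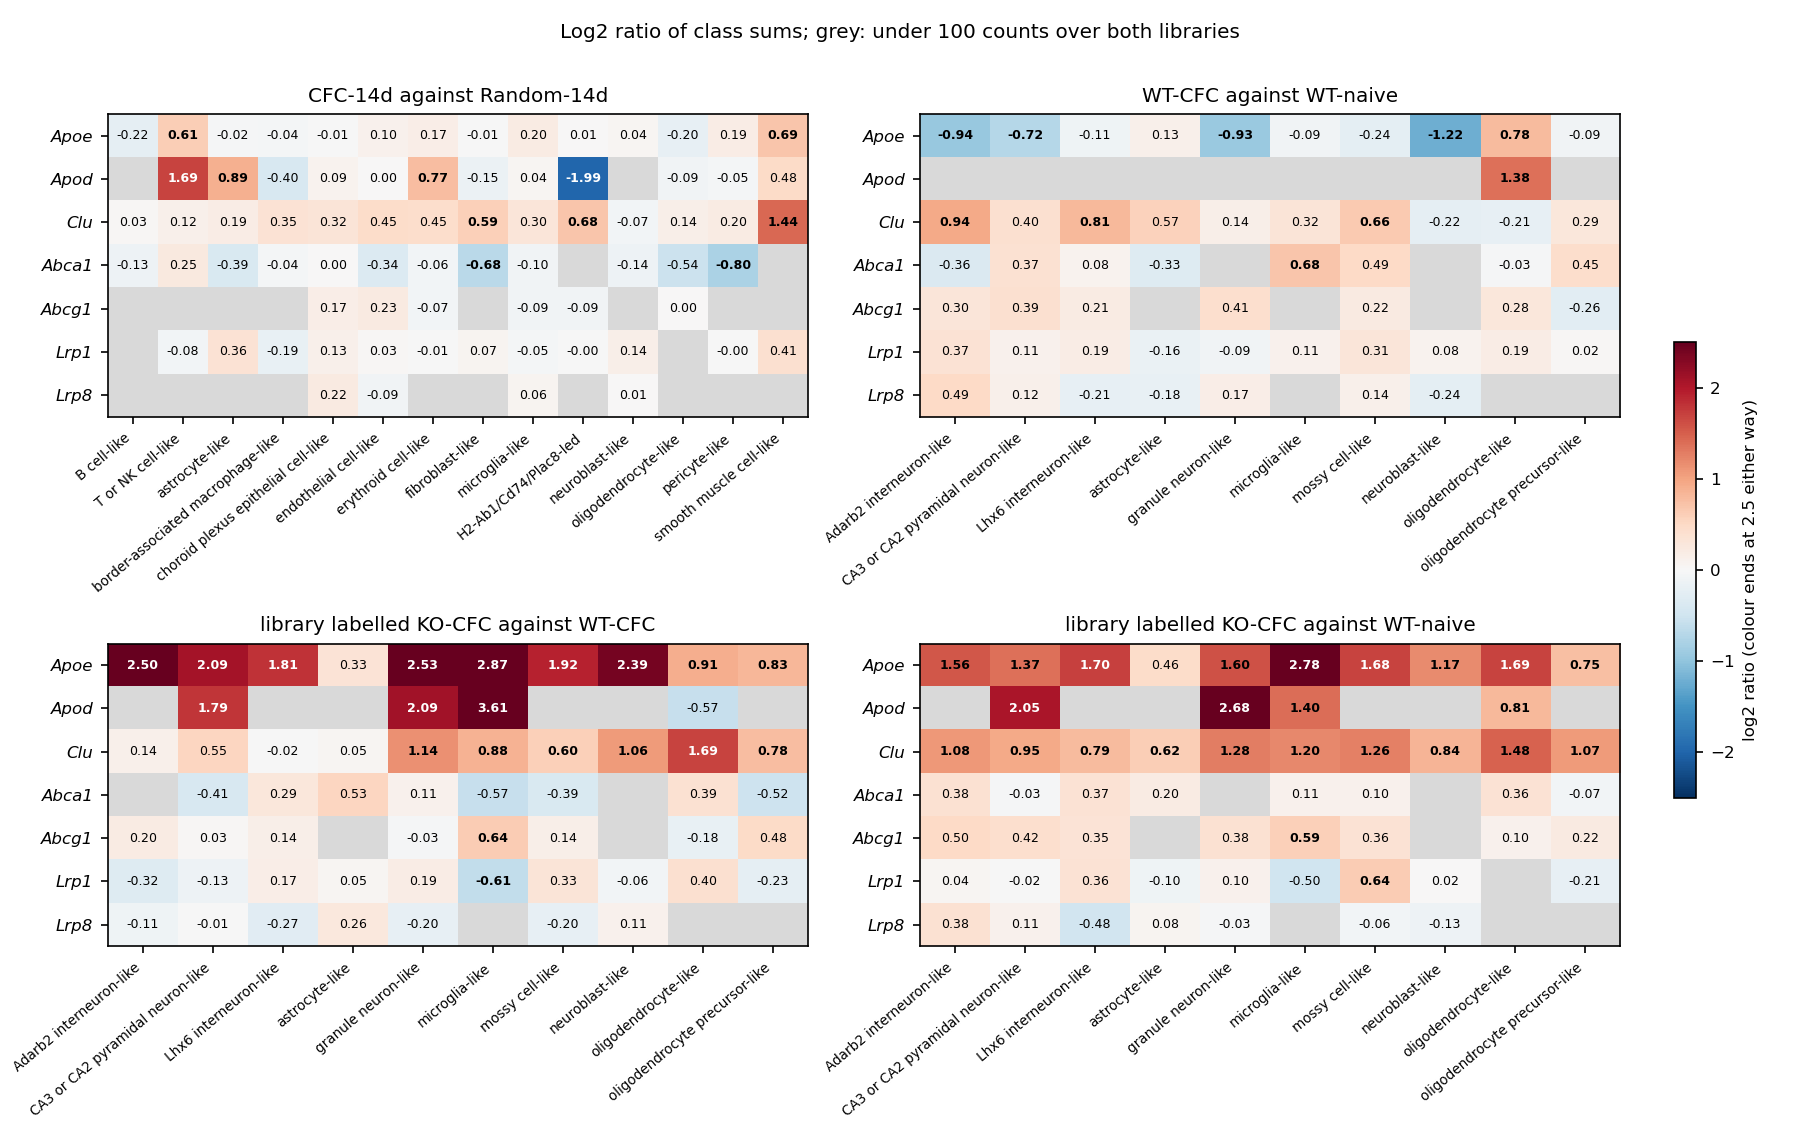
Log2 ratio of class sums for each gene (rows) and class (columns) in the 4 comparisons; bold numbers are 1.5-fold or more apart, and grey marks pairs under 100 counts over both libraries. Apoe is above 0 in all 10 classes in both comparisons of the KO-CFC-labelled library, and Lrp8 is within 1.5-fold in every class shown for it.

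The KO-CFC-labelled library was compared with WT-CFC, which had the same training, and with WT-naive. Both comparisons use that 1 library, so they are not independent, and genotype, sex-linked RNA and B cell RNA change together in it and cannot be told apart. Against WT-CFC 57 pairs were taken up, and 19 were called higher and 1 lower (35.1%), where 22.5% of all genes were called (14.5% higher and 8.07% lower). Against WT-naive 56 pairs were taken up, and 25 were called higher and none lower (44.6%), where 23.2% of all genes were called (16.5% higher and 6.7% lower). The carriers gave 18 of the 19 higher calls against WT-CFC and 23 of the 25 against WT-naive.

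Apoe in microglia-like nuclei was 4587 (4472 to 4705) CPM in the KO-CFC-labelled library, and 626 (559 to 699) and 668 (593 to 750) CPM in trained and untrained wild type, log2 ratios of 2.87 (2.71 to 3.04) and 2.78 (2.61 to 2.96), in a class where 36.3% and 37.6% of genes were called. After thinning, 88.2% of these nuclei had an Apoe UMI against 30.7% and 41.2% (90.6%, 35.1% and 47.1% unthinned). Relative to astrocyte-like nuclei of the same library, the microglia-like level was 63.0% in the KO-CFC-labelled library, 10.8% in WT-CFC and 12.6% in WT-naive. The class was larger and its markers weaker there: 806 nuclei against 353 and 329, with summed microglia markers of 2770 against 6152 and 5357 CPM and B cell markers of 1748 against 51.0 and 65.6 CPM. Limited to nuclei with at least 3 UMIs of microglia markers, a setting chosen after seeing the data, the level was 4574 CPM in 553 nuclei against 616 CPM in 329 nuclei of WT-CFC and 645 CPM in 304 nuclei of WT-naive. This limit did not remove the B cell RNA: B cell markers still summed to 1789 CPM against 53.6 in WT-CFC and 67.5 in WT-naive. Microglia markers stayed weaker, at 3355 against 6385 and 5611 CPM. The part of these marker differences in the Apoe level was not tested.

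Apoe was higher in all 10 classes against both libraries and called in 9, astrocyte-like nuclei being the exception at 0.33 (0.29 to 0.38) against WT-CFC and 0.46 (0.42 to 0.51) against WT-naive. In oligodendrocyte precursor-like nuclei the call against WT-naive was lost under both other scalings, down to 0.53. Granule neuron-like nuclei had 379 (364 to 393) CPM against 65.6 in WT-CFC (2.53, 2.39 to 2.67) and 125 in WT-naive (1.595, 1.48 to 1.72), and the share with an Apoe UMI after thinning was 33.6% against 6.65% and 12.6% (73.7%, 29.2% and 42.7% unthinned). Oligodendrocyte-like nuclei had 1993 CPM against 1064 (0.91, 0.80 to 1.01) and 618 (1.69, 1.55 to 1.83). Of all genes taken up, granule neuron-like nuclei called 22.0% and 20.5% against these libraries and oligodendrocyte-like nuclei 29.8% and 28.0%. In the unnamed cluster of few UMIs, Apoe was 2817 CPM in the KO-CFC-labelled library against 572 in WT-CFC and 1018 in WT-naive, the same order of libraries as in each neuron class, although the intervals of the wild-type libraries overlapped in mossy cell-like and Lhx6 interneuron-like nuclei. The part of free RNA in the neuron values was not tested.

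**Figure D5:**
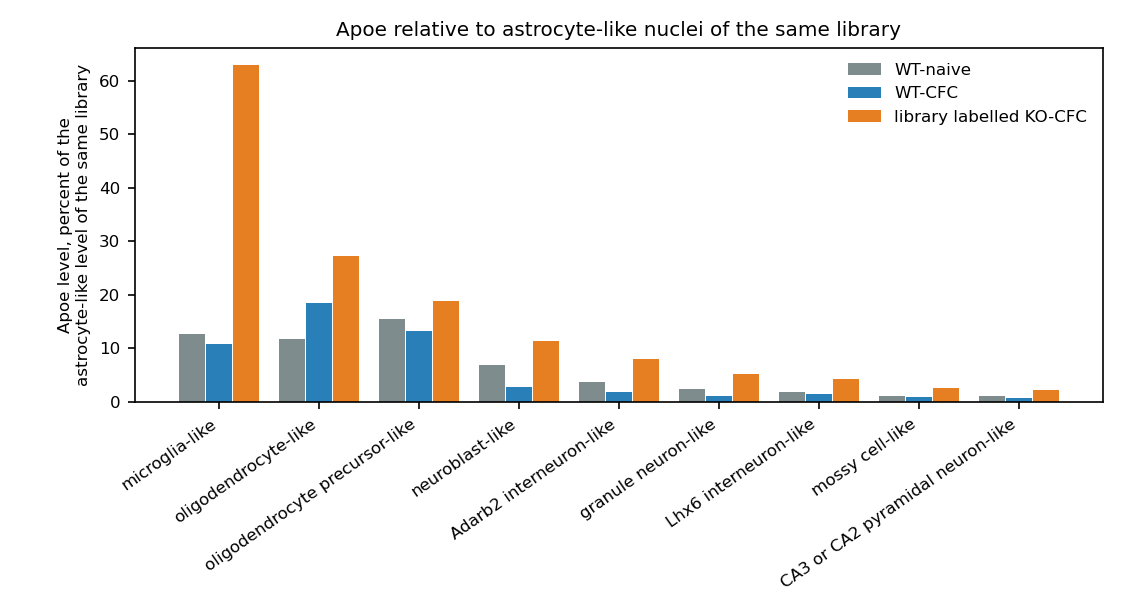
Apoe level of each class of nuclei as a percentage of the astrocyte-like level of the same library; bars are single libraries and start at 0. The microglia-like class stands at 63.0% in the KO-CFC-labelled library and at 10.8% and 12.6% in WT-CFC and WT-naive, and the neuron classes are higher in that library as well.

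Clu was called higher in 6 of 10 classes against WT-CFC and in 10 of 10 against WT-naive, where 14.5% and 16.5% of all genes over these classes were called higher. Against WT-CFC the call was lost in 5 of 10 alternative settings in mossy cell-like, 3 of 12 in oligodendrocyte precursor-like and 2 of 12 in microglia-like nuclei. Against WT-naive it was lost in 4 of 12 in astrocyte-like and 3 of 11 in Lhx6 interneuron-like nuclei. In oligodendrocyte-like nuclei it was 263 (230 to 299) CPM in the KO-CFC-labelled library against 81.1 in WT-CFC (1.69, 1.36 to 2.04) and 93.7 in WT-naive (1.48, 1.13 to 1.86). In granule neuron-like nuclei it was 126 CPM against 57.2 (1.14, 0.98 to 1.31) and 51.9 (1.28, 1.09 to 1.48). Astrocyte-like nuclei had 2677 CPM against 2582 in WT-CFC (0.05, -0.02 to 0.12) and 1743 in WT-naive (0.62, 0.54 to 0.70). Lhx6 and Adarb2 interneuron-like nuclei were also close to WT-CFC (-0.02, -0.21 to 0.17 and 0.14, -0.06 to 0.33).

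Apod in microglia-like nuclei was 83.3 CPM (109 counts) in the KO-CFC-labelled library, 5.89 CPM in WT-CFC (3 counts, log2 ratio 3.61, 2.24 to 6.12) and 30.5 CPM in WT-naive (1.40, 0.62 to 2.41). In granule neuron-like nuclei it was 16.2 CPM against 3.75 (2.09, 1.51 to 2.75) and 2.44 (2.68, 1.92 to 3.65). CA3 or CA2 pyramidal neuron-like nuclei were called as well (1.79 and 2.05). These classes called 36.3% and 37.6%, 22.0% and 20.5%, and 16.5% and 20.4% of all genes. In the other compared classes except oligodendrocyte-like nuclei, Apod was not taken up but was also higher in this library. Astrocyte-like nuclei, for example, had 41.8 CPM against 7.19 and 9.25. The part of free RNA in these values was not tested. In oligodendrocyte-like nuclei, where Apod is highest, the KO-CFC-labelled library lay between the others: 493 CPM against 734 in WT-CFC (-0.57, -0.74 to -0.41) and 281 in WT-naive (0.81, 0.59 to 1.04).

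The exporters and receptors had few calls in the KO-CFC-labelled library. Abca1 was called in none of 8 classes in either comparison. In microglia-like nuclei it was 234 CPM against 347 in WT-CFC (-0.57, -0.84 to -0.30) and 216 in WT-naive (0.11, -0.22 to 0.47), and in astrocyte-like nuclei 179 CPM against 124 (0.53, 0.24 to 0.81) and 155 (0.20, -0.08 to 0.48). Abcg1 was called in microglia-like nuclei, at 160 CPM against 102 (0.64, 0.20 to 1.11) and 105 (0.59, 0.13 to 1.10), and each call was lost in 2 of 12 alternative settings. Lrp1 in microglia-like nuclei was 281 CPM against 428 in WT-CFC (-0.61, -0.85 to -0.36), the 1 lower call, and against 396 in WT-naive (-0.50, -0.76 to -0.23). In 7 of 12 alternative settings this Lrp1 ratio was no longer past 1.5-fold, at values between -0.55 and -0.37. Microglia-like nuclei called 36.3% of their genes against WT-CFC (18.4% lower) and 37.6% against WT-naive (16.5% lower). Their weaker microglia markers and their B cell RNA were given with Apoe. The part of these in the Abca1, Abcg1 and Lrp1 ratios was not tested. Lrp1 in mossy cell-like nuclei was 176 CPM against 141 (0.33, 0.16 to 0.49) and 113 (0.64, 0.46 to 0.81). The second was called, and was lost in 3 of 10 alternative settings, down to 0.33. Lrp8 was called in none of 7 classes in either comparison, and in neuroblast-like nuclei its ratios were 0.11 (-0.42 to 0.65) and -0.13 (-0.57 to 0.30).

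A list of 55 other genes of lipid transport gives the setting: other apolipoproteins, transporters, lipoprotein receptors, regulators, enzymes and the Reelin pathway. In CFC-14d against Random-14d, 6 of 216 pairs of gene and class were called higher and 6 lower (5.56%, against 3.35% of all genes), with a median log2 ratio of 0.07 against 0.04 over all genes. Lrp4, a receptor related to Lrp1 and Lrp8, was 62.6 against 36.3 CPM in astrocyte-like cells (0.78, 0.30 to 1.29). Lpl, a lipase of lipoprotein particles, was 45.2 against 97.5 CPM in fibroblast-like cells (-1.09, -1.80 to -0.46), and Abca8a, a transporter, 32.2 against 56.8 CPM in oligodendrocyte-like cells (-0.81, -1.30 to -0.35).

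In WT-CFC against WT-naive, 16 of 187 such pairs were called higher and 4 lower (10.7%, against 6.58% of all genes), with a median of 0.16 against 0.05 over all genes. Oligodendrocyte-like nuclei, which called 11.3% of all their genes higher, had 4 of these higher calls of 14 genes, with Abca8a at 263 against 122 CPM (1.10, 0.80 to 1.42) and Npc1, which moves cholesterol out of lysosomes, at 193 against 103 CPM (0.90, 0.56 to 1.26). In astrocyte-like nuclei Abca5, a transporter, was higher (0.70, 0.27 to 1.16) and Nceh1, a cholesteryl ester hydrolase, lower (-0.75, -1.34 to -0.17). Lrpap1, the chaperone of these receptors, was 108 against 211 CPM in microglia-like nuclei (-0.96, -1.48 to -0.47). Reln, the gene of Reelin, was 458 against 172 CPM in Adarb2 interneuron-like nuclei (1.41, 1.28 to 1.55). The part of the cluster make-up of that class, given with Clu, was not tested.

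The KO-CFC-labelled library had 24 higher and 19 lower of 180 pairs against WT-CFC (23.9%, median -0.09), near the 22.5% of all genes (median 0.02). Against WT-naive it had 34 higher and 12 lower of 178 (25.8%, median 0.13), near the 23.2% of all genes (median 0.08). These counts are no result about the list. In astrocyte-like nuclei against WT-CFC, Soat1, which esterifies cholesterol, was lower (-0.70, 127 against 207 CPM), and Nceh1 (1.56, 1.01 to 2.14) and Cyp46a1, a cholesterol hydroxylase known from neurons (1.41, 0.89 to 1.94), were higher. In microglia-like nuclei Abca9 (-2.002, -2.32 to -1.69) and the scavenger receptor Stab1 (-1.68, -2.12 to -1.24) were lower, and Lrp1b (1.53, 1.26 to 1.82) and Dab1, the adaptor of Reelin receptors (1.36, 1.06 to 1.69), were higher. That class called 36.3% of its genes against WT-CFC, and the part of its marker differences, given with Apoe, was not tested. Reln in Adarb2 interneuron-like nuclei was 166 CPM in the KO-CFC-labelled library against 458 in WT-CFC (-1.46, -1.67 to -1.27), and 172 in WT-naive. WT-CFC thus stood apart from both other libraries. That class called 18.8% of its genes against WT-CFC.

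Genes with the pattern most like each of the 7 were taken by the correlation of log2(CPM + 1) over class sums, 29 in cells and 30 in nuclei, which share libraries and classes. For Apoe the closest was C4b in cells (r = 0.80) and Aldoc in nuclei (0.94). For Apod these were Lpar1 (0.93) and Ptgds (0.97), and for Clu Mt3 (0.98) and Mlc1 (0.94). Abca1 was closest to Ang (0.83) and Agmo (0.93), Abcg1 to Retreg1 (0.92) and Tgfa (0.80), Lrp1 to Plxnb2 (0.90) and Rnf180 (0.95), and Lrp8 to Sema3c (0.89) and Mllt3 (0.91). Among the 7 themselves, Apoe and Clu had the highest correlation in nuclei (0.86), and in cells Abca1 and Apoe (0.55) and Apoe and Clu (0.55).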

How the data were processed

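Each value started from UMI counts per gene and barcode, deposited by the authors as raw counts with no normalization. The matrices were written by Cell Ranger 8.0.1, per the file headers. Seurat 5.4.0, GRCm39 and mm39 are further names in the submitters' processing notes. Which annotation release was used is not given there. Per the labels' protocols, all libraries were droplet 3' libraries. Barcodes with at least 500 UMIs, 300 genes and at most 20% (cells) or 5% (nuclei) mitochondrial UMIs were kept, and the 8% of highest doublet score (simulated doublets, own implementation) were removed. Clustering used 2000 variable genes, 30 principal components, 20 neighbours and Leiden resolution 1 (igraph 0.11.9), with an own implementation of Harmony over the nuclei libraries. Of 32 clusters of cells 6 stayed unnamed, and of 30 of nuclei 12. Classes needed 50 barcodes for a level and 100 for a comparison. A count of 0 has a floor of 3 counts, but no level printed here was 0. Replicate numbers only name libraries. Shares were thinned to 1000 UMIs, leaving out shallower barcodes. Ratios were tested on simulated data. Genes named are the 7, up to 2 highest and 2 lowest called pathway genes per class of which some are given, and the closest gene by correlation. The genes, the lists, markers and comparisons were chosen with earlier results of these data known, and the limits for naming clusters after seeing the data. Alternatives changed filters, scaling (edgeR 4.0.16 TMM factors and median-of-ratios factors), doublets and clustering.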

Additional observations from a re-analysis of the deposited data

How the results depend on the processing

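Of 66 called ratios, 48 stayed past 1.5-fold in the same direction in each alternative that gave a value (6 to 12 per ratio) and 18 were lost in at least 1. One turned: Apod in astrocyte-like cells of CFC-14d against Random-14d, at -0.0840 with no doublet removal. The count of calls in CFC-14d against Random-14d (11) became 19 with at least 1 count in place of 100 (where 45.5% of all genes were called), 17 with at least 1000 UMIs and 500 genes, 17 with Leiden resolution 2 and 7 with 15% removed by doublet score. With at least 1 count the KO-CFC-labelled library had 31 calls against WT-CFC (20), and clustering the libraries separately gave it 15 against WT-naive (25). The cause of the clustering and filter changes was not tested. Except for the 45.5%, the share of all genes called in each alternative setting is not given here. The changed counts in this section are therefore no result about the 7 genes. For WT-CFC against WT-naive every alternative gave between 8 and 12 calls (10). TMM factors moved all ratios of a class by over 0.1 in 16 of 44 classes and comparisons, most in mossy cell-like nuclei of the KO-CFC-labelled library against WT-CFC (-0.31); with TMM factors that comparison had 17 higher and 3 lower calls in place of 19 and 1. Settings without shared barcodes, without smooth muscle cell-like cells, without H2-Ab1/Cd74/Plac8-led cells and with a marker limit on microglia-like nuclei were chosen after seeing the data and kept all counts of calls within 1.5 times. No paired analysis was possible because each group is 1 library. Intervals cover counting error only, and Lrp8 and Abcg1 had under 100 counts in many classes, where they were not taken up.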

Other observations

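Unnamed clusters held Apoe at levels outside the classes. Cells led by the antigen-presentation genes H2-Eb1, H2-Ab1 and H2-Aa, 324 in CFC-14d and 291 in Random-14d, had 22005 and 19677 CPM of Apoe, between the macrophage-like and astrocyte-like classes. The cluster led by S100a9, S100a8 and Camp, with 5104 cells in CFC-14d and 274 in Random-14d, had 3990 and 3952 CPM, near the 3909 and 3940 CPM of choroid plexus epithelial cell-like cells, and 867 and 775 CPM of Clu. Cells led by Nrgn, Ppbp and Clec1b had 3476 and 3351 CPM of Apoe and 915 and 867 CPM of Clu.

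In nuclei, a cluster led by Hba-a1, Hbb-bs and Hba-a2, with 119, 125 and 110 nuclei, had 715, 574 and 1994 CPM of Apoe and 53.7, 133 and 232 CPM of Apod in WT-naive, WT-CFC and the KO-CFC-labelled library. A cluster found with at least 50 nuclei only in the KO-CFC-labelled library (200 nuclei, led by Gm54222, Ighg2c and Mir142hg) had 1590 CPM of Apoe and 343 CPM of Clu.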
